A study of Mus musculus with 4 samples.

Results

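The cytosolic ribosomal protein genes encode the protein part of the translating ribosome, and their probes were compared here between fibroblasts with added NSD2 and fibroblasts with a control vector. The members were all probes whose platform gene symbol is Rpl or Rps followed by a number, with an ending letter or l allowed, together with Rplp0, Rplp1, Rplp2 and Rpsa. The kinases of ribosomal protein S6 and other longer symbols were left out. This gave 78 of 25697 probes and 61 of 16593 named genes, of which 23 belong to the small subunit, 35 to the large subunit and 3 to the acidic stalk of the large subunit. The study measured total RNA on Illumina mouse bead arrays, 2 arrays for cells stably transduced with wild-type NSD2 and 2 for cells with the control vector. NSD2 is a methyltransferase that dimethylates histone H3 at H3K36. All cells were embryonic fibroblasts from p19ARF-/- mice, grown in serum-containing medium with no treatment, so that both groups lack p19ARF, an inhibitor of MDM2 that stabilises p53. The labels do not say whether a line was a clone or a pool, nor whether each array had its own culture. A p-value here thus weighs a difference against the spread of these arrays alone, drawn for each probe towards that of all probes. That spread may be technical. In RNA from whole cultures, scaled to equal distributions, fewer cells with an mRNA cannot be told apart from less of it per cell, and a change in total RNA per cell is not visible.

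Each ribosome carries a single copy of nearly every ribosomal protein, and dividing cells keep the mRNAs of these genes among the most abundant they have. Most of these mRNAs begin with a terminal oligopyrimidine tract (TOP), a run of C and T just after the transcription start through which mTOR signalling sets their translation. Unassembled Rpl5 and Rpl11 form a particle with 5S ribosomal RNA that binds MDM2 and stabilises p53, a second route to p53 beside the one through p19ARF. Transcription by MYC and ribosome assembly in the nucleolus act on the same genes and products in growing fibroblasts.

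The sequences around the annotated starts were searched for pyrimidine runs, which were not used to choose these genes. Windows of 30 bases, 15 on each side of the start, are printed for genes that the results below turn on, with the longest pyrimidine run of at least 6 bases near the start in capitals. They lie at chr2:32961697-32961726 (Rpl12, + strand), chr7:28350674-28350703 (Rps16, + strand), chr10:128626492-128626521 (Rps26, - strand), chr11:101442230-101442259 (Rpl27, + strand), chr7:99483695-99483724 (Rps3, - strand), chr4:86857353-86857382 (Rps6, - strand), chr3:90213634-90213663 (Rps27, - strand) and chr11:114668565-114668594 (Rpl38, + strand) in GRCm38.p6, as given by RefSeq. 
Rpl12: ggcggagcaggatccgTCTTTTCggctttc
Rps16: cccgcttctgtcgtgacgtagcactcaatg
Rps26: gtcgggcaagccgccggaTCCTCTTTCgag
Rpl27: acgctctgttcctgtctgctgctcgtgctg
Rps3: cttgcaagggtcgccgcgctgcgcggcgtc
Rps6: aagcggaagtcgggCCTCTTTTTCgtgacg
Rps27: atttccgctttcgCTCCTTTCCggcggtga
Rpl38: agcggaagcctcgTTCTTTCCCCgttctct
Of the 61 genes, 52 had a window in the RefSeq table. A pyrimidine run of at least 6 bases that reached within 10 bases of the start stood in 32 of these 52 genes (61.5%), against 32.4% of 17491 genes of that table. Runs before the start counted as well as runs after it, so these are not shares of TOP mRNAs. The letters CCGGAAG, the core bound by ETS factors, were found on either strand of the 300-base window in 40.4% of the member genes and 12.9% of all those genes. These matches are letters in a window and no sites of binding. AAGATGGC, a core bound by YY1, was found in 9.62% and 3.57%, and TATAAA in 9.62% and 14.8%. Among the members above background on all 4 arrays, the median log2 fold change of NSD2 over control vector was -0.046 for the 27 genes with a run (10 higher) and -0.050 for the 18 genes without one (8 higher).

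Probes of the ribosomal protein genes reached the top of the signal range. They held 6.41% and 6.13% of the summed signal of all probes on the NSD2 arrays, and 6.73% and 6.29% on the control arrays. Of the 20 brightest probes, 7 and 9 were members on the NSD2 arrays and 8 and 9 on the control arrays. A probe's signal depends on its sequence as well as on its mRNA, so these ranks describe probes and not mRNA levels. Probes of 7 genes (Rplp1, Rps2, Rpl41, Rpl38, Rpl9, Rps20 and Rps12) came within 10% of the highest signal of at least 1 array, and differences there may be compressed, which was not tested. By the signals before normalization, 53 member genes were above background on all 4 arrays and 8 on none (Rpl14, Rpl17, Rpl6, Rps23, Rpl3l, Rpl39l, Rplp2 and Rpsa). The level of those 8 was not measurable with these probes. Of the cell type markers measured, 8 of 9 for fibroblasts were above background on all 4 arrays, as were 1 of 5 for blood and immune cells (Cd14), 3 of 4 for epithelium (the keratins Krt8, Krt18 and Krt19) and 0 of 4 for endothelium. A tissue entry in the labels names blood, and it was not used. No named probe was matched to Nsd2 itself, which was not analysed here.

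**Figure D1:**
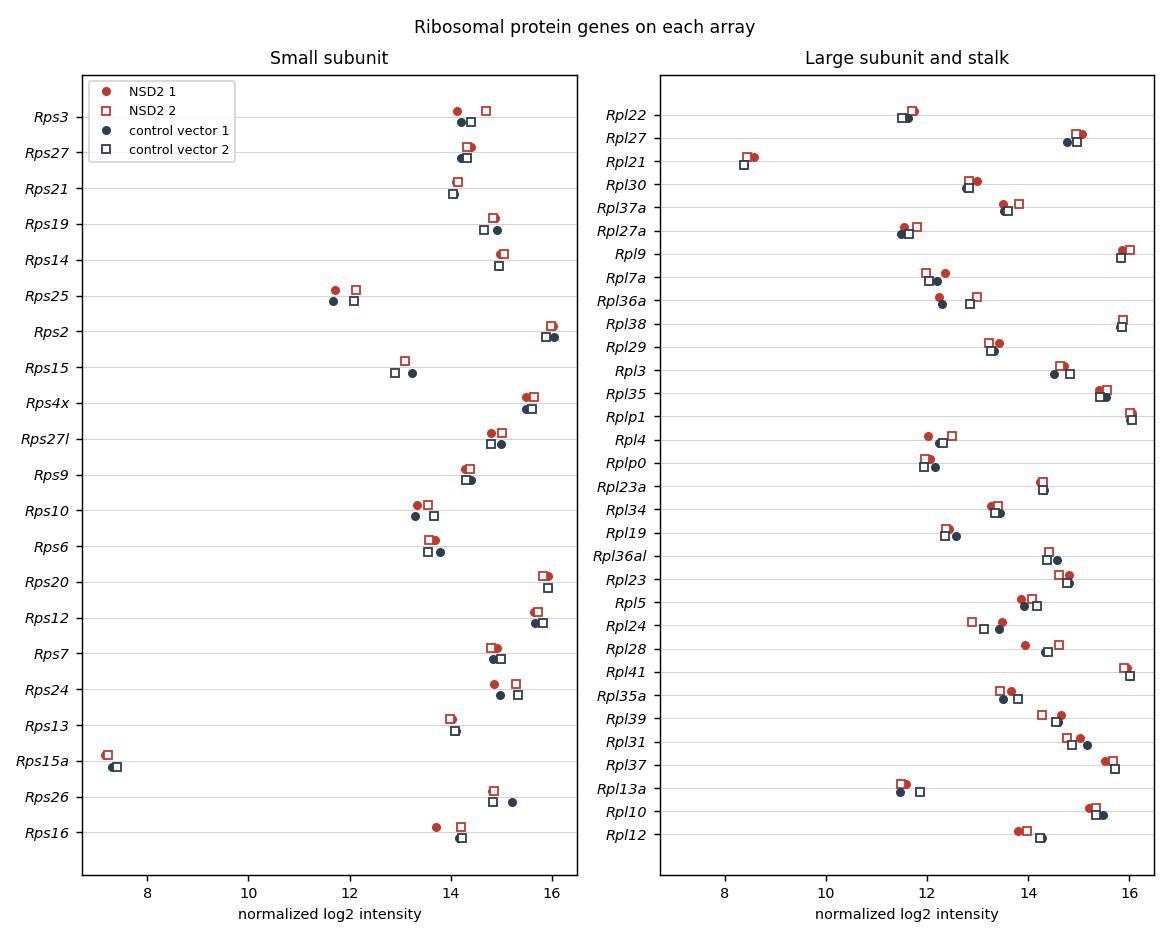
Normalized log2 intensity (horizontal axis) of the 53 ribosomal protein genes above background on all 4 arrays, 1 row per gene and ordered by the difference between the groups, with NSD2 arrays in red and control vector arrays in dark blue. The points of a gene lie close together compared with the distances between genes, and the groups overlap in most rows.

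No ribosomal protein gene passed the test for a change with NSD2. Of the 78 member probes 0 passed the test over all probes (limma, Benjamini-Hochberg adjusted p under 0.05), where 4 of 25697 probes (0.0156%) passed. At an unadjusted limma p under 0.05 there was 1 of 78, the probe of Rpl14, which was above background on no array, against 3.91% of all probes, and 0 of the 53 genes above background on all 4 arrays. The smallest adjusted p among the members was 0.9996. Among the 53 genes above background the mean was higher with NSD2 in 24 and lower in 29 (45.3% higher), against 49.2% higher among all 6902 genes above background. Their median log2 fold change was -0.038, against -0.0037 over all those genes. Without the first NSD2 array the median of the members was 0.0099, with 28 of 53 higher, and without the first control array it was -0.0013. The differences ran from -0.36 to 0.16, with 18 of 53 within 0.05 of 0 and 2 more than 0.2 away from it. The groups did not overlap in 12 of the 53 genes (22.6%), against 30.7% of all genes above background. Of these, 7 were higher with NSD2 (15.1% of all genes were) and 5 lower (15.6% of all genes were).

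The precision sets what these values can show. The standard error of the log2 fold change was 0.20 to 0.26, and the 95% interval of every one of the 53 genes included 0. Each standard error was drawn by limma towards the spread of all probes. In Rpl38 it was 0.20, although the SDs within groups were 0 with NSD2 and 0.027 with control vector. A 2-fold change in either direction lay outside all 53 intervals. For the genes near the top of the signal range this holds for the signals, whose differences may be compressed against those of the mRNA. The lowest bound was that of Rpl12, 1.73-fold lower with NSD2, and the highest that of Rps3, 1.51-fold higher. A robust trended variance, which lets bright probes have a spread of their own, gave a smaller median standard error (0.15 against 0.20), and the interval of Rpl12 then left out 0, with a limma adjusted p of 0.9997 as the smallest among the members.

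**Figure D2:**
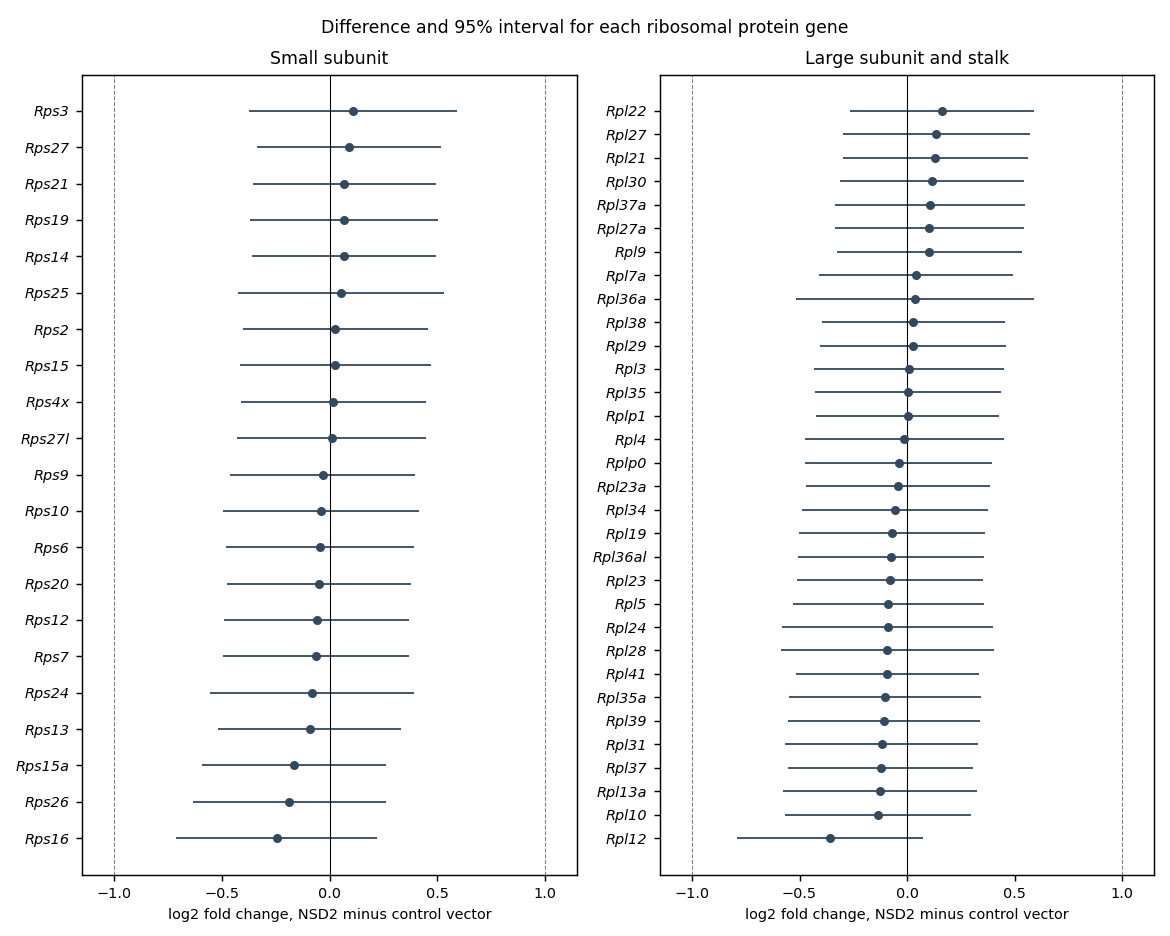
Log2 fold change of NSD2 over control vector (horizontal axis) with its 95% interval from limma for each of the 53 genes, small subunit on the left and large subunit with the stalk on the right. Every interval crosses 0 and stays inside the dashed lines at a 2-fold change.

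The genes with the lowest values did not pass the test. Rpl12, a protein at the base of the stalk where elongation factors bind, had a log2 intensity of 13.80 and 13.98 on the NSD2 arrays, against 14.27 and 14.23 on the control arrays. Both NSD2 values lay below both control values, and the difference was -0.36 ± 0.20 (SE, limma adjusted p = 0.9996). Rps16, a protein of the small subunit head, stood at 13.70 and 14.20 with NSD2, against 14.16 and 14.23 with control vector. That difference of -0.25 ± 0.22 rested on the first NSD2 array, without which it was 0.0071. Rps26, which lines the mRNA exit channel, stood at 14.82 and 14.85 with NSD2, against 15.20 and 14.84 with control vector (-0.19 ± 0.21). Here the first control array was high, and without it the difference was -0.0055. Rps15a differed by -0.16 ± 0.20 on a dim probe (7.16 and 7.23 with NSD2, against 7.31 and 7.41 with control vector). Rpl10, which joins the large subunit late in its maturation, differed by -0.14 ± 0.20 (-0.067 without the first NSD2 array and -0.069 without the first control array), and Rpl13a, which in human cells leaves the ribosome after interferon treatment to silence mRNAs, by -0.13 ± 0.21.

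The highest values were smaller in size. Rpl22, an RNA-binding protein of the large subunit needed for T cell development in mice, had 11.74 and 11.71 on the NSD2 arrays, against 11.62 and 11.50 on the control arrays. The groups did not overlap, and the difference was 0.16 ± 0.20 (SE, limma adjusted p = 0.9996). Rpl27 stood at 15.07 and 14.95 with NSD2, against 14.77 and 14.97 with control vector (0.14 ± 0.20), with overlap between the groups. Rpl21 (0.13 ± 0.20), Rpl30 (0.12 ± 0.20), Rps3, which sits at the mRNA entry channel (0.11 ± 0.23), and Rpl37a (0.11 ± 0.21) followed. Without the first NSD2 array the differences were 0.069 for Rpl21 and 0.041 for Rpl30, and without the first control array that of Rpl27 was 0.042. On this probe of Rps3 the second array was the higher in both groups, with 14.13 and 14.70 with NSD2, against 14.20 and 14.40 with control vector. Without the second NSD2 array the difference on this probe was -0.18, which sets the first NSD2 array against control arrays of both numbers. The other, dimmer probe of Rps3 had 13.79 and 13.69 with NSD2, against 13.39 and 13.67 with control vector. That difference was 0.21 ± 0.21, and the groups did not overlap on it.

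Further members had groups that did not overlap. Rps21 had 14.10 and 14.14 on the NSD2 arrays, against 14.06 and 14.04 on the control arrays, a difference of 0.069 ± 0.20. Rps14 had 14.97 and 15.06 with NSD2, against 14.94 and 14.95 with control vector (0.066 ± 0.20). In the other direction, Rps13 had 14.02 and 13.98 with NSD2, against 14.10 and 14.08 with control vector (-0.092 ± 0.20). Rpl37 differed by -0.12 ± 0.20 and Rpl9, near the top of the signal range, by 0.10 ± 0.20. These differences were smaller than their standard errors, which limma draws towards the spread of all probes. The SDs within groups of these genes were smaller than the standard errors too, with 0.024 (NSD2) and 0.0087 (control vector) in Rps21.

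The measured proteins that link the ribosome to p53 had small differences. Rpl5, which carries the 5S ribosomal RNA and binds MDM2, had 13.85 and 14.08 on the NSD2 arrays, against 13.92 and 14.18 on the control arrays. The ranges overlapped, and the difference was -0.087 ± 0.21, with a 95% interval of -0.53 to 0.36. Rpl23, another MDM2 binder, stood at 14.81 and 14.61 with NSD2, against 14.81 and 14.77 with control vector (-0.081 ± 0.20). Its 4 probes above background ran from -0.24 to 0.066, so that probes of the same gene took both signs. Rpl11 and Rpl26, which act in the same route, were not analysed here.

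Rps6, the small subunit protein phosphorylated by S6 kinases downstream of mTOR, had 13.69 and 13.57 on the NSD2 arrays, against 13.79 and 13.56 on the control arrays (-0.046 ± 0.21). The ranges of the groups overlapped. Of the stalk proteins, Rplp0, the platform of the stalk, stood at 12.07 and 11.97 with NSD2, against 12.16 and 11.95 with control vector (-0.038 ± 0.20). Its other probe differed by 0.13. Rplp1, which was close to the highest signal on every array, differed by 0.0034 ± 0.20, and Rplp2 was not above background on any array.

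Genes known from human or mouse phenotypes of single ribosomal proteins had differences of like size. Rps19, whose human form is mutated in Diamond-Blackfan anaemia, had 14.87 and 14.84 on the NSD2 arrays, against 14.91 and 14.66 on the control arrays (0.066 ± 0.21). Its other probe differed by -0.050. Rpl38, which in mice is needed for translation of a subset of Hox mRNAs, had 15.86 on both NSD2 arrays, against 15.81 and 15.85 on the control arrays. The groups did not overlap, the difference was 0.030 ± 0.20 (-0.041 with median scaling and -0.12 in the authors' processed values), and its second probe differed by -0.11. Rpl24, affected in the belly spot and tail mouse, differed by -0.091 ± 0.23, and its NSD2 values of 13.47 and 12.90 enclosed the control values of 13.42 and 13.13. Rps20 (-0.049 ± 0.20) and Rpl41, the shortest ribosomal protein (-0.092 ± 0.20), were both near the top of the signal range.

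No paralog with a measurable level passed the test. Rps27l, a paralog of Rps27 that p53 induces in human cells, had 14.80 and 15.02 on the NSD2 arrays, against 14.997 and 14.80 on the control arrays, and differed by 0.011 ± 0.21. Rps27 itself had 14.40 and 14.31 with NSD2, against 14.21 and 14.32 with control vector (0.090 ± 0.20). Rpl36al, a paralog of Rpl36a, differed by -0.075 ± 0.20, and Rpl36a by 0.038 ± 0.26. Rpl3l, the striated muscle paralog of Rpl3, and Rpl39l, the testis paralog of Rpl39, were above background on 0 arrays. Rpl10l and Rps4l were not analysed here. Beyond the symbols counted as members, Rpl22l1 differed by -0.017 ± 0.23, Rpl7l1 by -0.20 ± 0.21 (-0.0099 on its other probe), Rps3a1 by -0.030 ± 0.23 and Fau, whose product is processed to a small subunit protein, by -0.069 ± 0.22. The limma adjusted p was 0.9996 for each.

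Both subunits had medians slightly below 0. Of the small subunit genes above background 10 of 21 had higher means with NSD2, with a median log2 fold change of -0.032. Of the large subunit genes 13 of 30 did, with a median of -0.049. The median size of the difference between the groups was 0.075 over the 53 genes, beside a median gap of 0.14 between the NSD2 arrays and 0.11 between the control arrays. Where the groups do not differ, a difference between means of 2 arrays is on average smaller than a gap between single arrays. Over all 6902 genes above background these values were 0.13, 0.21 and 0.20. Bright genes varied less in general. Among genes with a mean log2 intensity of at least 13, the SD of the log2 fold change over genes was 0.099 for the 41 members and 0.17 for the 313 others. That difference in spread was not tested. Several probes of a gene gave a further measure of error. In 6 of the 10 genes with several probes above background on all 4 arrays, the probes took opposite signs. The widest disagreement was in Rpl29, with -0.29 and 0.030.

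**Figure D3:**
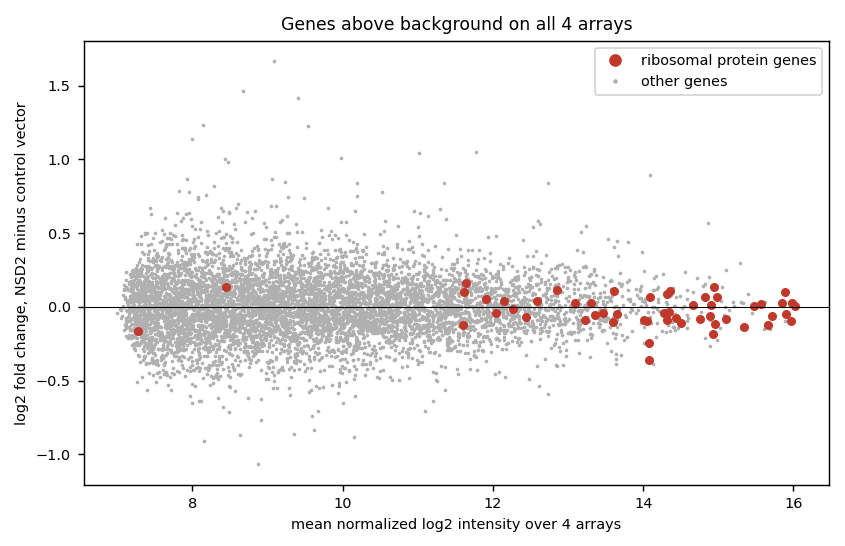
Log2 fold change of NSD2 over control vector (vertical axis) against mean normalized log2 intensity over the 4 arrays (horizontal axis) for 6902 genes above background, with the 53 ribosomal protein genes in red. The red points lie mostly at the bright end, between -0.36 and 0.16, where the grey points also scatter less.

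In 5 lists of other genes of translation and ribosome production 0 genes passed the test (limma, adjusted p under 0.05), and 1, Eif4ebp1, had an unadjusted p under 0.05. The mitochondrial ribosomal proteins, a separate set built into the ribosome of that organelle, had 33 of 70 genes above background with higher means with NSD2 and a median of -0.029. Their SD over genes was 0.17, against 0.10 for the cytosolic ribosomal proteins, with extremes at Mrpl52 (-0.44 ± 0.22) and Mrpl57 (0.36 ± 0.24). The mitochondrial set was dimmer, with a median log2 intensity of 10.62 on the first NSD2 array, against 14.13 for the cytosolic set. The spreads were not compared at equal brightness. Elongation factors and other TOP mRNAs had 5 of 14 higher and a median of -0.018. Eef1g stood at -0.14 ± 0.21, Eef2, the translocase of elongation, at -0.094 ± 0.22, and Npm1, a nucleolar chaperone, at 0.30 ± 0.21 with groups that did not overlap. RNA polymerase I and its factors had 5 of 13 higher. Polr1a, the largest subunit of the enzyme that makes ribosomal RNA, stood at -0.42 ± 0.20, and Polr2f, a subunit shared by the RNA polymerases, at -0.36 ± 0.21. Ribosome assembly genes had 9 of 20 higher and a median of -0.030, with the processing factor Bop1 at -0.42 ± 0.23 and Fbl, the methyltransferase of ribosomal RNA, at -0.027 ± 0.20. Among S6 kinase and TOP regulators 4 of 7 were higher. Eif4ebp1, the mTOR substrate that restrains the cap-binding factor, averaged 12.34 with NSD2 and 12.88 with control vector (-0.53 ± 0.21, limma adjusted p = 0.9996). Its groups did not overlap, nor did those of Polr1a, Polr2f and Bop1, each lower with NSD2. Higher with NSD2 without overlap were Polr2e (0.27 ± 0.20), Mtor (0.25 ± 0.21), Tsr1 (0.18 ± 0.20) and Polr1c (0.15 ± 0.20). Of the genes without overlap, 2 were higher and 3 lower in the RNA polymerase I list. In the ribosome assembly list and in the S6 kinase list 1 was higher and 2 were lower. Groups did not overlap in 30% of the mitochondrial ribosomal proteins, 14.3% of the elongation factor list and 38.5% of the RNA polymerase I list. The share was 15% for ribosome assembly and 42.9% for the S6 kinase list, against 30.7% of all genes above background.

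**Figure D4:**
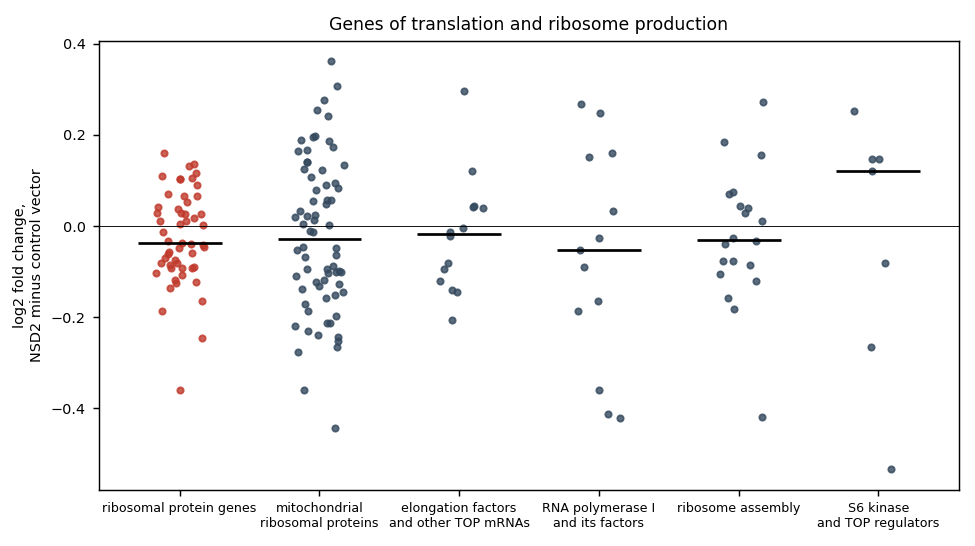
Log2 fold change of NSD2 over control vector (vertical axis) for each gene above background in the ribosomal protein set (red, 53 genes) and in 5 related lists (blue), with a line at each median. The medians of the first 5 sets lie between -0.053 and -0.018, and that of the S6 kinase and TOP regulators, with 7 genes, at 0.12.

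The split between higher and lower members moved with the scaling of the arrays. In the authors' processed values 8 of the 53 genes were higher with NSD2 (15.1%), with a median of -0.12, against 45.8% higher and -0.024 over all genes above background. Median scaling gave 19 of 53 higher (35.8%), with a median of -0.036, against 60.1% and 0.047 over all genes. In the processed values other bright genes also had a median below 0. Of 313 other genes with a mean log2 intensity of at least 13, 31.6% were higher with NSD2 and the median was -0.077, while the 41 members of that brightness had 3 higher and a median of -0.13. With median scaling the other bright genes had 53.0% higher and a median of 0.0056, while 12 of the 41 bright members were higher (29.3%), with a median of -0.051. The highest processed value was 84606 and 50552 on the NSD2 arrays, against 81601 and 56765 on the control arrays, so the arrays did not share a common top. The part of this in the shift was not tested. The number of member probes past the adjusted threshold was 0 under either scaling.

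**Figure D5:**
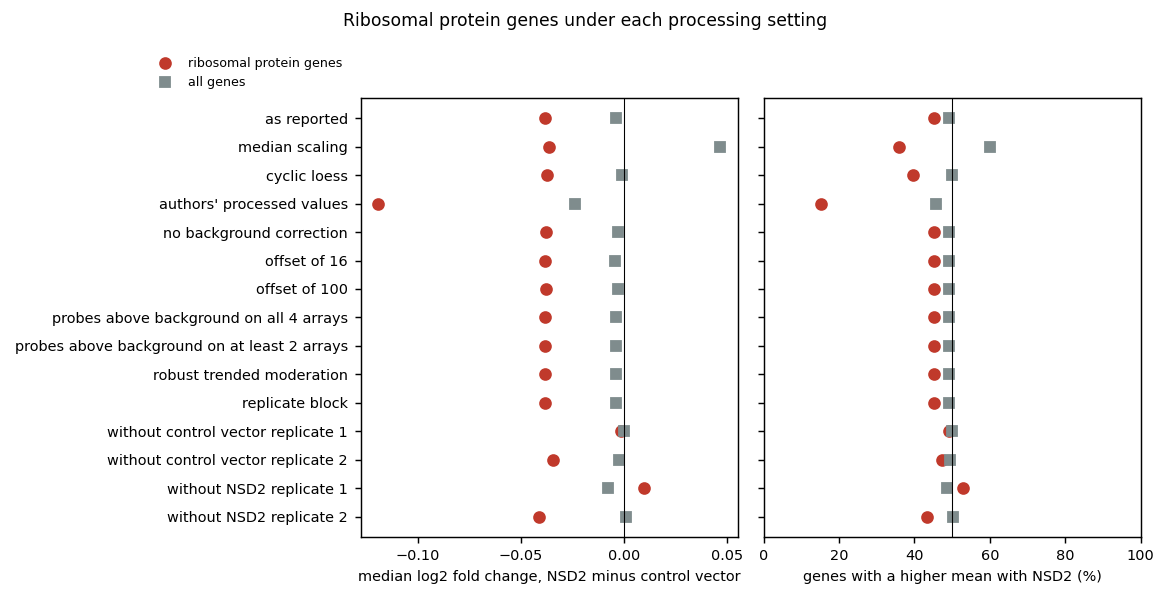
Median log2 fold change of NSD2 over control vector (left) and share of genes with a higher mean with NSD2 (right) under each processing setting, for the ribosomal protein genes (red) and for all genes above background (grey). The authors' processed values stand apart from the other settings, with 15.1% of the ribosomal protein genes higher.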

How the data were processed

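The deposited table holds average bead signals as linear intensity values, not normalized per the file headers, without detection p-values. A second table holds the authors' processed intensity values, and no source used here names their normalization. Within an array they rank the probes as the signals do (Spearman correlation 1 over probes). Their column medians were 48.6 and 42.3 on the NSD2 arrays and 48.7 and 42.4 on the control arrays, so they are linear, uncentred and of the same direction. Groups and replicate numbers come from the sample titles. Triplicates are named in the design text, while 2 arrays a group were used.

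Signals were corrected with normexp (offset 50), quantile-normalized over all probes and put on the log2 scale. Quantile normalization gives equal ranks equal values, so some replicates share a value. Groups were compared with lmFit and eBayes (limma 3.58.1, R 4.3.3; two-sided, no covariate, Benjamini-Hochberg over 25697 probes, threshold 0.05). The procedure was tested on simulated data with noise drawn independently for each array, so a deviation shared by same-numbered arrays was not simulated. A probe was above background where it exceeded the upper 5% point of the low side of the log2 signal distribution mirrored about its mode, a rule chosen after seeing the files. These thresholds were 178 and 182 on the NSD2 arrays and 185 and 219 on the control arrays, and the median signals 164 and 172, against 173 and 204. The number of arrays limits the precision.

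Gene symbols came from the platform annotation (23978 probes named, 1719 unnamed). All 78 member probes were found by identifier in RefSeq (GRCm38.p6), with 0 changed symbols. A gene is given by its probe with the highest mean. The genes named are the 6 highest and 6 lowest members above background on all 4 arrays, a list chosen by role and the largest disagreement between probes. Rpl14, members named for groups that do not overlap and the genes named in other lists were chosen after their values were seen. The members and lists were chosen with earlier results of these data known.

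Alternatives covered the scaling, offset, background correction, filters, variance moderation, replicate number and single arrays; the authors' processed values were floored at 1 before log2.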

Additional observations from a re-analysis of the deposited data

How the results depend on the processing

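Under the 14 alternatives 0 ribosomal protein probes passed the test in any fit (smallest limma adjusted p 0.236, for the Rpl14 probe below background, with the replicate number as a block). The fits and their adjustment took all probes, or with a background filter only the probes that passed it. Numbers of probes called over the whole array did vary. From 4 they became 0 with median scaling, with an offset of 16, with probes above background on all 4 arrays and in the authors' processed values, where 327, 1105, 331 and 1033 probes had a limma p under 0.05 before adjustment. They became 1 with probes above background on at least 2, 13 with robust trended moderation and 48 with the replicate block. Leaving out 1 array gave 5 to 15, the lone array of a group being assumed to vary like the others; 13 were called without control vector 1 and 15 without control vector 2. Same-numbered arrays deviated together from their group means (correlation 0.52 over 9779 probes above background), but with 2 numbers and no label that a number marks a batch they were not taken as pairs. The block left all 53 genes uncalled (smallest limma adjusted p 0.668).

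The median log2 fold change of the ribosomal protein genes was -0.12, with 8 of 53 genes higher, in the authors' processed values, and -0.041 to 0.0099 with 1 array left out (-0.0013 without control vector 1 and 0.0099 without NSD2 1). In the other settings the median moved by less than 0.013, the pooled SD within groups of the arrays' median deviation from the gene means. The count of higher genes moved there by less than 1.5 times. These settings included the mean of all probes of a gene and wider or narrower membership. They also included leaving out the genes near the top of the signal range, a setting chosen after seeing the data (20 of 46 higher, median -0.039). Median scaling was among them too, but the median of the members minus that of all genes went from -0.034 to -0.083 with it.

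Of 378 values of 27 named genes, 0 passed the threshold and 29 changed sign, in 17 genes. Outside single-array omissions these were Rpl22l1 (0.057) and Rpl38 (-0.041) with median scaling, Rpl38 with cyclic loess (-0.0081), and in the authors' processed values Rpl38 (-0.12), Rpl27 (-0.00097), Rplp1 (-0.070), Rps27 (-0.0046) and Rps27l (-0.030). With 1 array left out the ranges were -0.32 to 0.073 for Rpl13a, -0.26 to 0.23 for Rpl22l1, -0.18 to 0.018 for Rpl23, -0.38 to 0.20 for Rpl24, -0.17 to 0.023 for Rpl36al, -0.055 to 0.27 for Rpl37a and -0.21 to 0.042 for Rpl5. They were -0.14 to 0.068 for Rplp0, -0.020 to 0.027 for Rplp1, -0.50 to 0.0071 for Rps16, -0.060 to 0.19 for Rps19, -0.096 to 0.12 for Rps27l, -0.18 to 0.40 for Rps3 and -0.16 to 0.071 for Rps6. Other genes did not change sign with 1 array left out but moved by over 1.5 times. Their ranges were -0.20 to -0.067 (Rpl10), -0.37 to -0.0055 (Rps26), -0.32 to -0.086 (Rpl7l1) and -0.098 to 0 (Rps20). Further ranges were 0.069 to 0.20 (Rpl21), 0.10 to 0.22 (Rpl22) and 0.042 to 0.23 (Rpl27). Those of Rpl30, Rpl38 and Rps27 were 0.041 to 0.19, 0.011 to 0.049 and 0.035 to 0.14. The cause was not tested. Leaving out 1 array also leaves the replicate numbers unbalanced between the groups. These ranges therefore take in the deviation shared by same-numbered arrays as well as the spread of single arrays. The signal over background limits the 8 genes below background, which have no measurable level here.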
